A study of Homo sapiens with 6 samples.

Results

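The genes described here are 10 core components of transforming growth factor beta (TGF-beta) signalling: the ligands TGFB1 and TGFB2, the receptors TGFBR1 and TGFBR2, the signal carriers SMAD2, SMAD3 and SMAD4, the inhibitory SMAD7, and the repressors SKI and SKIL. All 10, taken by gene name, had a row of their own among 17588 rows with a name that occurs once, and all 10 were among the 12216 genes tested. The values come from RNA sequencing of human umbilical vein endothelial cells (HUVECs), primary endothelium cultured from the cord vein and obtained from a commercial supplier. One group of 3 libraries was transfected with the microRNA miR-483 and the other group of 3 with 8OH-G miR-483, the same microRNA carrying oxidised guanine (8-oxoguanine), and RNA was collected on day 2. Both groups therefore carried a transfected microRNA delivered with lipid. The protocol also names a scramble control, which was not analysed here, so a difference between the groups cannot be assigned to one form or the other.

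In TGF-beta signalling, a dimeric ligand brings a type II receptor (TGFBR2) together with a type I receptor (TGFBR1), which then phosphorylates SMAD2 and SMAD3. These join SMAD4, enter the nucleus and regulate transcription. SMAD7, itself a target of the pathway, blocks the type I receptor, and SKI and SKIL repress transcription by binding the SMADs. Endothelial cells also use a second type I receptor, ACVRL1, with the co-receptor ENG, which signals through SMAD1, SMAD5 and SMAD9. TGFBR2 has been reported as a target of miR-483, so the comparison asks in part whether its level differs between the forms.

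Levels are given in FPKM (fragments per kilobase of gene, scaled to library size), the unit inferred for the deposited values. They are scaled for gene length, so different genes can be set side by side. Column totals ran from 1396537 to 1687283, of which mitochondrial rows made up 71.3% to 76.6%. Replicate 1 of miR-483 stood apart in its low values, with 2663 rows at 0 against 287 to 625 in the other 5 libraries. Read depth is unknown, so no counting error is given, and 3 libraries per group limit the precision. The labels do not say whether the libraries of each group were separate cultures, and the p-values measure only their spread, which may be technical. Fitted differences come from limma across all tested genes, on the log2(FPKM + 1) scale with miR-483 subtracted from the oxidised form, and a gene was called at an adjusted p under 0.05. On this scale the change of low genes is understated. All 8 endothelial markers examined were present. Their summed level was 1693 to 1756 FPKM with miR-483 and 922 to 1113 FPKM with 8OH-G miR-483. Of the 8, 6 were called lower (75.0%), beside 20.4% of all tested genes. The bulk RNA cannot tell fewer cells of a type from less RNA per cell.

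SMAD7 was the member that differed most. It fell from 5.87 ± 0.288 to 1.76 ± 0.0638 FPKM. Here and below, values with ± are the mean and SD of 3 libraries. Among the others, SMAD3 and TGFBR2 rose by a fraction of their level, TGFB2 rose from a very low level, SKI fell slightly, and TGFB1, TGFBR1, SMAD2, SMAD4 and SKIL did not pass the test. In all, 5 of 10 members were called, 3 higher and 2 lower. Over all tested genes, 55.4% were called, 35.0% higher and 20.4% lower, so the number of members called was close to the background. The groups did not overlap for 7 of 10 members, 3 with the oxidised form above and 4 below, and for 63.3% of all tested genes, 39.7% higher and 23.6% lower. TGFB2 reached the filter for testing (at least 1 FPKM in at least 3 libraries) only through the 8OH-G miR-483 group and therefore had to differ. Of the 9 members above the filter in both groups, 4 were called. With at least 1 FPKM required in all libraries, the same 9 were tested and 4 were called (44.4%), 2 higher and 2 lower. In that fit 55.4% of all tested genes were called, 35.3% higher and 20.1% lower. The groups did not overlap for 6 of these 9 members, 2 with the oxidised form above and 4 below. The 63.3% given above includes genes that, like TGFB2, reached the filter through only 1 group. Replicate 1 of miR-483 was the library with the most rows at 0. Without it, the fitted differences were -1.35 for SMAD7, 0.39 for SMAD3 and 0.28 for TGFBR2, all still called by limma. TGFB2 was at 0.85, again above the filter only through the 8OH-G miR-483 group, so its call there is no support. SKI was then at -0.22 and no longer called, and the small difference of SKIL changed sign to 0.01.

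**Figure D1:**
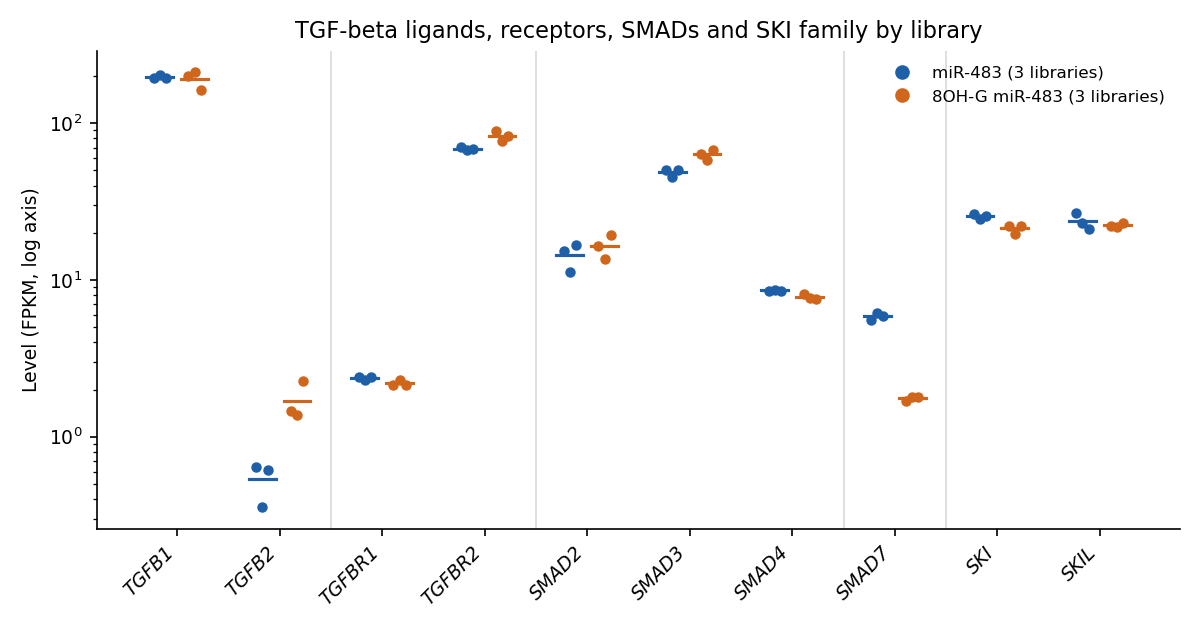
Level of each gene in every library in FPKM on a log axis, with miR-483 in blue and 8OH-G miR-483 in orange. Points are libraries in the order of their replicate numbers and bars are group means. The groups lie furthest apart for SMAD7 (means of 5.87 and 1.76 FPKM) and TGFB2 (0.535 and 1.69 FPKM), and they overlap for TGFB1, SMAD2 and SKIL.

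Scaling mattered for the small differences. The median fitted difference of all tested genes was 0.10, and median-ratio scaling of the libraries moved it by -0.10 and quantile normalization by -0.11. After median-ratio scaling 2 members were higher and 3 lower, beside 54.5% of all tested genes called, 27.3% higher and 27.2% lower. Quantile normalization gave 3 members higher and 4 lower, beside 55.0% called, 27.0% higher and 28.0% lower. When the test asked for a change beyond 1.2-fold, SMAD7 was lower and TGFB2, with the limit given above, higher, and the other 8 members did not pass, beside 27.1% called, 17.9% higher and 9.22% lower. Every member called as deposited kept its direction under both scalings, and TGFBR2 alone lost its call, after median-ratio scaling.

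The ligands differed greatly in level. TGFB1, the founding ligand of the family, was at 194, 202 and 195 FPKM in the miR-483 libraries and at 201, 211 and 162 FPKM in the 8OH-G miR-483 libraries. The groups overlapped, and the spread was wider with the oxidised form, where replicate 3 was the lowest of all 6 libraries. The fitted difference was -0.05 (95% interval -0.28 to 0.18, adjusted p = 0.679, limma). TGFB2, a second ligand best known from heart valve and vessel development, was at 0.637, 0.357 and 0.610 FPKM with miR-483 and at 1.45, 1.37 and 2.26 FPKM with 8OH-G miR-483. Every library of the oxidised form was above every library of the other group, and the mean was 3.16-fold higher. The fitted difference was 0.80 (SE 0.139). Because TGFB2 met the filter only through the group where it was high, the p-value from the filtered genes is no support. With every row above 0 in at least 1 library tested, the difference was the same and the adjusted p was 0.00244 (limma). That fit rests on the same values of a member chosen with earlier results known, so it adds no support. All miR-483 values were under 1 FPKM, and read depth is unknown. TGFB2 was the member with the lowest mean in both groups. Its level was 0.00921 ± 0.00410 of that of TGFB1 with 8OH-G miR-483 and 0.00272 ± 0.000832 with miR-483.

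The receptors were unequal in the same way. TGFBR2, the type II receptor that binds the ligand, was at 70.7, 67.8 and 68.5 FPKM with miR-483 and at 88.7, 77.6 and 82.6 FPKM with 8OH-G miR-483. The groups did not overlap, and the mean was 1.2-fold higher with the oxidised form (fitted difference 0.26, SE 0.070, adjusted p = 0.0125, limma). This call was lost after median-ratio scaling (difference 0.15, adjusted p = 0.107, limma) and without 8OH-G miR-483 replicate 1 (0.21, adjusted p = 0.0507, limma). TGFBR1, the kinase that phosphorylates SMAD2 and SMAD3, was far less abundant, at 2.41, 2.31 and 2.41 FPKM with miR-483 and 2.15, 2.29 and 2.13 FPKM with 8OH-G miR-483. Its values also did not overlap, but the fitted difference of -0.08 did not pass (95% interval -0.25 to 0.08, adjusted p = 0.355, limma), except after quantile normalization (-0.20, adjusted p = 0.0439, limma).

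Among the SMADs that carry the signal, SMAD3 stood highest. It was at 50.2, 45.6 and 50.6 FPKM with miR-483 and at 63.8, 58.4 and 67.9 FPKM with 8OH-G miR-483. The groups did not overlap, and SMAD3 rose 1.3-fold in mean level (fitted difference 0.37, SE 0.078, adjusted p = 0.00399, limma). After median-ratio scaling the difference was 0.26 (adjusted p = 0.0236, limma). SMAD2, its close relative, was at 15.3, 11.3 and 16.8 FPKM with miR-483 and at 16.5, 13.7 and 19.4 FPKM with 8OH-G miR-483. These groups overlapped widely, and the fitted difference of 0.19 had a 95% interval of -0.17 to 0.55 (adjusted p = 0.340, limma). Replicate 2 had the lowest SMAD2 and the lowest SMAD3 of its group in both groups. No source used here says how reads shared by the 2 genes were counted, so their levels are uncertain to that extent.

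SMAD4 is the common partner of the signalling SMADs. It was at 8.50, 8.66 and 8.55 FPKM with miR-483 and at 8.18, 7.73 and 7.52 FPKM with 8OH-G miR-483. All libraries of the oxidised form were lower, yet the fitted difference of -0.12 did not pass as deposited (95% interval -0.27 to 0.03, adjusted p = 0.142, limma). With median-ratio scaling it passed at -0.22 (adjusted p = 0.0177, limma), and with quantile normalization at -0.28 (adjusted p = 0.00688, limma).

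SMAD7 was at 5.57, 6.14 and 5.91 FPKM in the miR-483 libraries. In the 8OH-G miR-483 libraries it was at 1.68, 1.80 and 1.79 FPKM. The 2 sets of values were far apart and each was tight, and the mean was 3.34-fold lower with the oxidised form. The fitted difference was -1.32 (SE 0.073, 95% interval -1.48 to -1.15, adjusted p = 3.18e-06, limma). Only 157 of the 12216 tested genes (1.29%) had a more negative fitted difference. The call held under all 15 alternatives tried, with differences from -1.68 with a pseudocount of 0.1 to -1.29 without miR-483 replicate 2. In the order of levels within each group, only SMAD7 and TGFBR1 changed places without overlapping in either group. SMAD7 stood above TGFBR1 with miR-483 and below it with 8OH-G miR-483.

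The SKI family genes encode co-repressors that hold SMAD target genes off and are degraded when the pathway is active. SKI was at 26.5, 24.6 and 25.6 FPKM with miR-483 and at 22.2, 19.7 and 22.1 FPKM with 8OH-G miR-483. The groups did not overlap, and SKI fell to a 1.2-fold lower mean (fitted difference -0.25, SE 0.072, adjusted p = 0.0168, limma). That call was lost when replicate 1 (adjusted p = 0.0563) or replicate 3 (0.0548) of miR-483 was left out, or replicate 2 of the oxidised form (0.0529), all by limma. SKIL, which encodes SnoN and is like SMAD7 a transcriptional target of the pathway, was at 26.9, 23.0 and 21.3 FPKM with miR-483 and at 22.1, 21.7 and 23.1 FPKM with 8OH-G miR-483. The groups overlapped, and the fitted difference was -0.08 (95% interval -0.28 to 0.13, adjusted p = 0.483, limma).

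**Figure D2:**
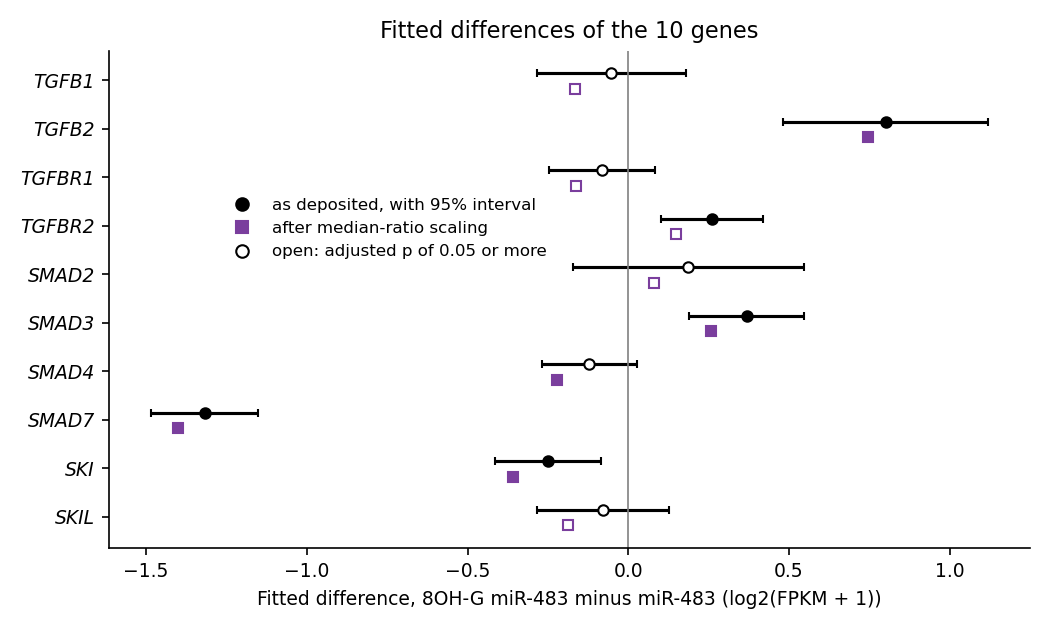
Fitted difference of each gene, oxidised form minus miR-483, in log2(FPKM + 1). Black circles with 95% intervals are values as deposited, purple squares are values after median-ratio scaling, and open symbols did not pass an adjusted p of 0.05. SMAD7 at -1.32 lies apart from the rest, and scaling ends the call of TGFBR2 and adds that of SMAD4.

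SMAD7 and SKIL are both feedback inhibitors whose transcription the SMADs are known to raise, and only the first was called here. The 250 bases before their annotated starts are shown as a description only, from the RefSeq promoter table (GRCh38.p14, another build than the hg19 named for the files). The bases run 5′ to 3′ on the strand of the gene. Capitals mark CAGAC or its reverse complement GTCTG, the core letters bound by SMAD3 and SMAD4. SMAD7 has 3 annotated starts and the most upstream is shown (chr18:48950966-48951215, minus strand). The SKIL window lies at chr3:170357465-170357714, plus strand.
SMAD7: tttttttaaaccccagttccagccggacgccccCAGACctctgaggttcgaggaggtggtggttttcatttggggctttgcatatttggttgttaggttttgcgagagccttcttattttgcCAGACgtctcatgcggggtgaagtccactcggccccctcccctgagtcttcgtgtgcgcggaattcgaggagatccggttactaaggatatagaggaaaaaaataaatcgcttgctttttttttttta
SKIL: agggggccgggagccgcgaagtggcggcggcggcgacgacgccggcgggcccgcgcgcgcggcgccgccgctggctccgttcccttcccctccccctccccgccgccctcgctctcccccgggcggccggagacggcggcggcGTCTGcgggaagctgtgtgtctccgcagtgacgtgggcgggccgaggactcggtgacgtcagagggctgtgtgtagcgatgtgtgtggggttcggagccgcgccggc
The SMAD7 window held 2 matches, which begin 217 and 128 bases before the start, and the SKIL window held 1, which begins 107 bases before it. The other SMAD7 windows held 1 and 0 matches, so the window shown is the one with the most. TGFBR1, which was not called, also had windows with 2 matches, 2 of its 8. Of the members called higher, TGFB2 had 2 matches in its 1 window, SMAD3 had up to 3 in its 5 windows, and TGFBR2 had 0 in its 2. Such matches are common: 38.0% of 35116 promoter windows of 250 bases held at least 1 on either strand, and 8.84% held at least 2. Windows were given for 9 of the 10 members, all but SKI, which was called lower. They were 24 in all, 8 of them from TGFBR1, and 10 held a match. Some windows of the same gene overlap, and a TGFBR1 match in overlapping windows was counted in each. The longer palindrome GTCTAGAC, which does not contain CAGAC or GTCTG, was in 0 of the 24 and in 0.182% of all windows. Bases past the annotated starts, or more than 250 before them, were not searched. A match describes letters in the window and is not a measured binding site. The part of such matches in the differences of these genes was not tested.

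Ratios between members inside a library do not depend on how that library was scaled, so 6 of them were compared. The smallest two-sided p of the exact permutation test over 3 against 3 libraries is 0.1, which cannot pass 0.05. The ratio of SMAD7 to SMAD2 plus SMAD3 was 0.0850, 0.108 and 0.0877 with miR-483 and 0.0210, 0.0250 and 0.0205 with 8OH-G miR-483. All libraries of the oxidised form were lower, and the mean was 4.22-fold lower (exact p = 0.1, adjusted p = 0.2 over the 6 ratios). The ratio of TGFBR2 to TGFBR1 was 29.4, 29.3 and 28.4 with miR-483 and 41.2, 33.9 and 38.8 with 8OH-G miR-483. It was higher in every library of the oxidised form, 1.31-fold in the mean (exact p = 0.1, adjusted p = 0.2). The TGFB2 to TGFB1 ratio was likewise higher in all 3 libraries, with the same p-values.

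The remaining ratios overlapped between the groups. SMAD3 stood at 3.45 ± 0.520 times the level of SMAD2 with miR-483 and at 3.88 ± 0.380 times with 8OH-G miR-483 (exact permutation p = 0.3, adjusted p = 0.36). SKI plus SKIL stood at 5.75 ± 0.463 and 5.60 ± 0.360 times the level of SMAD4 (exact permutation p = 0.5, adjusted p = 0.5). SKIL to SKI was 0.928 ± 0.0931 and 1.05 ± 0.0537 (exact permutation p = 0.2, adjusted p = 0.3).

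**Figure D3:**
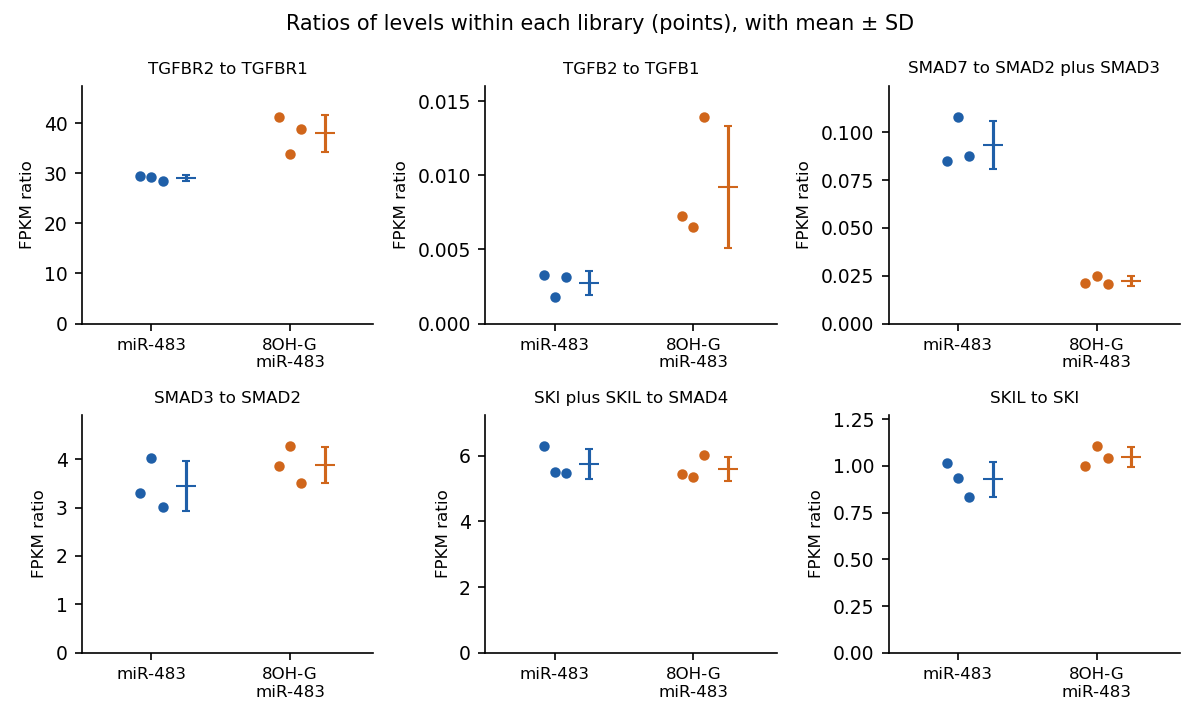
Ratios of FPKM levels within each library, on linear axes that start at 0. Points are the 3 libraries of a group and bars show the mean ± SD beside them. The groups are apart for TGFBR2 to TGFBR1, TGFB2 to TGFB1 and SMAD7 to SMAD2 plus SMAD3, the last with means of 0.0936 and 0.0222, and they overlap in the lower row.

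In order of mean level with miR-483, the members ran TGFB1, TGFBR2, SMAD3, SKI, SKIL, SMAD2, SMAD4, SMAD7, TGFBR1 and TGFB2. Each was separate from the next over its 3 libraries except SKI and SKIL, which overlapped. With 8OH-G miR-483 the first 3 kept their order, SKIL and SKI overlapped again with SKIL slightly ahead, and SMAD2, SMAD4 and TGFBR1 followed. SMAD7 (1.76 FPKM) and TGFB2 (1.69 FPKM) then overlapped at the bottom.

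The rest of the pathway was read from lists of 94 genes, of which 82 were tested. Of these, 24 rose (29.3%), 24 fell (29.3%) and 34 did not pass, so that 58.5% were called, near the 55.4% of all tested genes. Their median fitted difference was -0.03, against 0.10 for all tested genes. After median-ratio scaling, 19 were higher (23.2%) and 35 lower (42.7%), beside 27.3% and 27.2% of all tested genes.

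Among receptors outside the core pair, 4 of 7 tested fell (57.1%) and the other 3 did not pass (median difference -0.27). Over all tested genes 20.4% were lower and 35.0% higher. ACVRL1, the endothelial type I receptor for BMP9 and TGF-beta, fell from 170 ± 3.24 to 106 ± 8.94 FPKM (difference -0.68, SE 0.078, adjusted p = 0.000135, limma). TGFBR3, the co-receptor betaglycan that presents TGFB2 to TGFBR2, fell from 2.41 ± 0.217 to 1.44 ± 0.125 FPKM. ENG, the endothelial co-receptor, was at 490 ± 12.1 and 448 ± 15.7 FPKM and did not pass (adjusted p = 0.143, limma) except after median-ratio scaling (0.0136). ACVRL1 and ENG are endothelial genes, and the lower summed level of endothelial markers given above moved with this list; its part in these differences was not tested.

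Of the 4 SMADs of the BMP branch (SMAD1, SMAD5, SMAD9 and SMAD6), 3 fell (75.0%) and 1 did not pass. The share of all tested genes that fell was 20.4%. SMAD6, the other inhibitory SMAD, fell from 23.3 ± 1.39 to 10.6 ± 1.26 FPKM (difference -1.07, SE 0.093, adjusted p = 2.78e-05, limma). SMAD9, a signal carrier of the BMP branch, fell from 3.39 ± 0.163 to 1.23 ± 0.141 FPKM. Both inhibitory SMADs were thus lower with 8OH-G miR-483, SMAD7 by 3.34-fold and SMAD6 by 2.20-fold in mean level.

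Latency and activation genes control how much stored TGF-beta becomes active. Of 11 tested, 6 fell (54.5%), 1 rose (9.09%) and 4 did not pass, beside 20.4% lower and 35.0% higher of all tested genes. The median was -0.52. FBN1, the fibrillin of the microfibrils that anchor latent complexes, fell from 24.2 ± 2.09 to 9.73 ± 0.880 FPKM. LTBP3, which binds latent TGF-beta, fell from 116 ± 2.04 to 64.5 ± 6.60 FPKM. NRROS, a membrane protein that holds latent TGFB1, rose from 3.42 ± 0.417 to 4.85 ± 0.538 FPKM, a call that was lost after quantile normalization (adjusted p = 0.0535, limma).

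Among textbook target genes of SMAD2 and SMAD3, 8 of 18 tested rose (44.4%), 4 fell (22.2%) and 6 did not pass. Over all tested genes 35.0% were higher and 20.4% lower. The list median was 0.20. After median-ratio scaling, 7 were higher and 7 lower (38.9% each), beside 27.3% and 27.2% of all tested genes. CTGF, connective tissue growth factor and a reported target of miR-483, rose from 315 ± 5.58 to 440 ± 27.9 FPKM (difference 0.48, SE 0.074, adjusted p = 0.0007, limma). SPHK1, the kinase that makes sphingosine-1-phosphate, rose from 28.2 ± 1.79 to 72.7 ± 10.7 FPKM. ADAM19, a membrane protease gene, fell from 17.5 ± 0.365 to 10.1 ± 1.39 FPKM, and NEDD9, a focal adhesion scaffold gene, from 16.3 ± 1.01 to 12.6 ± 0.538 FPKM. PMEPA1, a feedback inhibitor induced by the pathway and taken from the list of regulators, fell from 11.2 ± 0.722 to 8.19 ± 0.407 FPKM. Its call was lost when a change beyond 1.2-fold was required (adjusted p = 0.137, limma). SMAD7 and PMEPA1 were thus lower while CTGF was higher in the same libraries, also after both scalings. SKIL, another feedback gene, was not called as deposited or after either scaling.

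**Figure D4:**
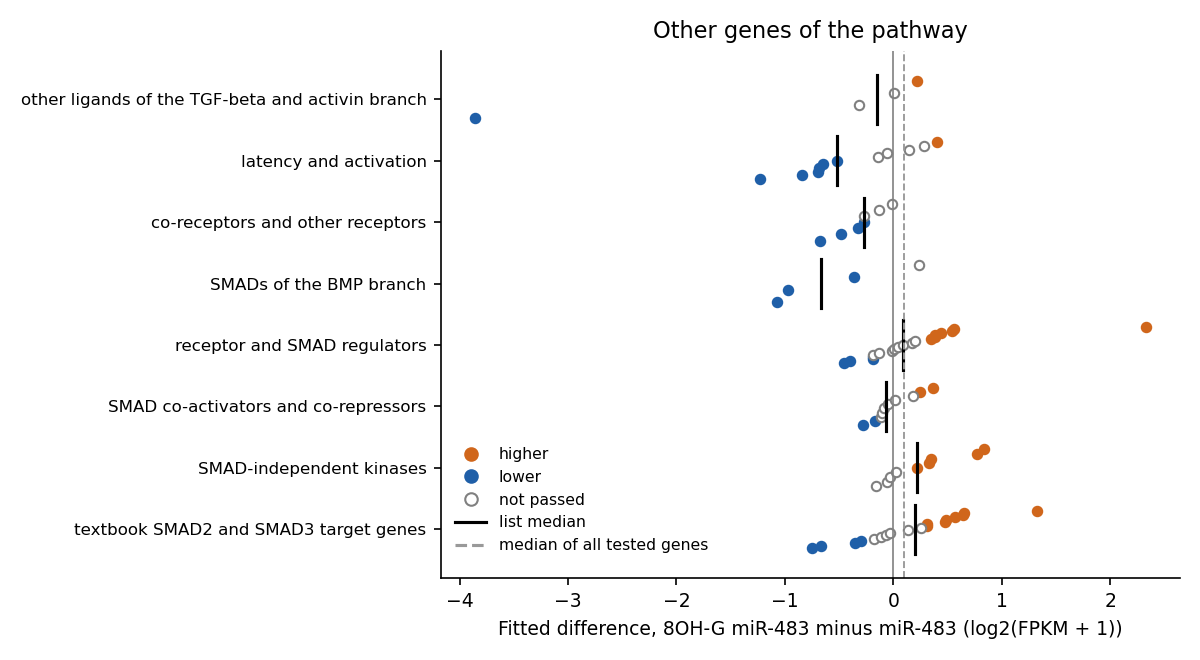
Fitted difference of each tested gene in the other pathway lists, on the log2(FPKM + 1) scale. Filled orange points were higher with 8OH-G miR-483, filled blue points lower, and open points did not pass. Black bars are list medians, and the dashed line is the median of all tested genes at 0.10. The medians of the BMP-branch SMADs (-0.67) and of latency and activation (-0.52) lie furthest to the left.

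Markers of other cell types were read as summed levels. Of 11 mural and fibroblast markers 5 had a row, 3 of them under 1 FPKM in every library, and their sum was 4.30 to 4.54 FPKM with miR-483 and 3.46 to 4.51 FPKM with 8OH-G miR-483. Of 10 leukocyte and platelet markers 3 had a row, with sums of 52.5 to 56.7 and 45.2 to 49.6 FPKM. Of 7 epithelial markers 3 had a row, all keratins, with sums of 71.0 to 81.6 and 127 to 144 FPKM. No erythroid marker was analysed here. The part of these cells in the differences above was not tested.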

How the data were processed

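RNA sequencing values of 6 HUVEC libraries, 3 per group, were used as the authors deposited them. The deposited values are taken as FPKM, scaled by the authors for gene length and library size. No header or label names the unit, and it was inferred from decimals whose totals exceed those of CPM or TPM. Per the submitters' processing notes, cutadapt, STAR, HTSeq, DESeq2 and the build hg19 were used, with no versions or order. Steps of whole reads were searched among 1726 low genes. At the best-fitting of 200 relative depths 45.7% lay within 0.05 log2 of a whole-number ratio, and at the median depth 42.1%, so reads were not recovered.

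Rows with repeated names (3204 rows, 748 names) were left out. The 12216 genes reaching 1 FPKM in 3 or more libraries entered a model of group alone on log2(FPKM + 1), fitted in R 4.3.3 by limma 3.58.1 with robust, trended shrinkage. Calls used Benjamini-Hochberg adjusted p under 0.05. Ratios were compared by exact two-sided permutation. The fit was tested on simulated data in which 200 of 12216 genes were changed, in equal numbers by 1 log2 or by a smaller amount. It recovered 94 of those changed by 1 log2 and 52 of the others, with 3 false calls among 149. Small differences can thus be missed. The simulated share of changed genes was far below the 55.4% called here, so the share of false calls here is not known from it.

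The 10 members and the lists were chosen with earlier results of these data known. Genes named besides the members were up to 2 with the smallest p in each direction per list, and ENG, ACVRL1, TGFBR3, TGFB3, SMAD6, PMEPA1 and CTGF whatever their values. Some genes that this rule names are not reported here. No source used here gives the strand setting or the handling of multi-mapped reads, so overlapping genes and close relatives are uncertain. Alternatives covered the pseudocount, filter, scaling, repeated names, the variance model, a fold threshold, a replicate block and leaving out each library. Figures were drawn with matplotlib 3.10.9 in Python 3.11.15.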

Additional observations from a re-analysis of the deposited data

How the results depend on the processing

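SMAD7 was called under all 15 alternatives. TGFB2 fell below the filter when any 8OH-G miR-483 library was left out or when 1 FPKM was required in all libraries. When a change beyond 1.2-fold was required, 1 member was higher and 1 lower. In the pathway lists 8 genes were then higher (9.76%) and 11 lower (13.4%), against 24 and 24. Over all tested genes 17.9% were higher and 9.22% lower in that fit. Of the pathway genes named in this report, GDF11, NRROS, TGFBR3, PMEPA1, NEDD4L, TGIF2, KAT2B, HDAC1 and NEDD9 lost their calls there. After quantile normalization 4 members were lower against 2 as deposited. Leaving out 1 library at a time gave 1 to 3 members higher and 1 to 2 lower, with the lowest count of higher members without 8OH-G miR-483 replicate 1. It gave 19 to 25 pathway genes higher and 19 to 24 lower, while 30.0% to 33.0% of all tested genes were higher and 16.1% to 19.9% lower in those fits. A pseudocount of 1 moved the log2 ratio difference of TGFB2 to TGFB1 from 1.72 to 0.85 and that of SMAD7 to SMAD2 plus SMAD3 from -2.08 to -1.64. Leaving out single libraries, the log2 ratio difference of SKI plus SKIL to SMAD4 ran from -0.090 to 0.028, the last, a change of sign, without miR-483 replicate 1. The counts of higher members without an 8OH-G miR-483 library include the loss of TGFB2 at the filter. TGFBR2 also lost its call without replicate 1 of that group. Adding 1 to each level understates the change of low genes, as stated above. The cause of the other changes was not tested.

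Replicate numbers are shared between the groups, but same-numbered libraries did not deviate together in every pair (correlations of 0.025, 0.34 and 0.0089), and not every library correlated best with its own number. With the replicate block, 4 members were higher and 2 lower, the additional one being SMAD2 (difference 0.19, adjusted p = 0.0346, limma), and 27 pathway genes were higher and 27 lower, beside 59.9% of all tested genes called. Permuting the ratios within replicate numbers can change only the p-value, whose smallest value is then 0.25, against 0.1 without the numbers. Depth is unknown, and members near 1 to 2 FPKM (TGFB2, SMAD7 with 8OH-G miR-483, TGFBR1) are the least certain.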

Other observations

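Other ligands were few. Of 4 tested, GDF11 rose, GDF3 fell, and TGFB3 and the activin subunit gene INHBA did not pass as deposited. The shares of all tested genes were 35.0% higher and 20.4% lower. With median-ratio scaling 0 of the 4 were higher and 2 lower, beside 27.3% and 27.2% of all tested genes. Quantile normalization also gave 0 higher and 2 lower, beside 27.0% and 28.0% of all tested genes. GDF3, a ligand that signals through the same receptor SMADs, went from 34.5 ± 3.19 to 1.47 ± 0.492 FPKM. GDF11 was at 4.05 ± 0.0535 and 4.90 ± 0.271 FPKM (difference 0.22, adjusted p = 0.0254, limma) and did not pass after either scaling or in 5 of the 6 fits that left out 1 library, with adjusted p from 0.0575 to 0.0860 in those 5. TGFB3 was at 2.33 ± 0.112 and 2.36 ± 0.356 FPKM. INHBA, which is named here after its values were seen, was lower after median-ratio scaling (difference -0.42, adjusted p = 0.0455, limma).

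Of 19 regulators of the receptors and SMADs, 7 were higher (36.8%), 4 lower (21.1%) and 8 did not pass, shares near the 35.0% and 20.4% of all tested genes. FST, which encodes the activin trap follistatin, rose from 0.479 ± 0.0882 to 6.51 ± 1.30 FPKM. It reached the filter only through the 8OH-G miR-483 group. TGFBRAP1, a protein that binds the type I receptor, rose from 7.86 ± 0.124 to 12.1 ± 0.875 FPKM. The ubiquitin ligase gene NEDD4L, whose product clears activated SMADs, fell from 4.73 ± 0.351 to 3.17 ± 0.361 FPKM.

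Kinases that carry TGF-beta signals without SMADs were also read from a list. Of 9 tested, 5 were higher with 8OH-G miR-483 (55.6%, beside 35.0% of all tested genes) and 4 did not pass. The median fitted difference was 0.22 against 0.10 for all tested genes. After median-ratio scaling 4 were higher (44.4%) and 1 lower (11.1%), beside 27.3% and 27.2% of all tested genes. MAP2K3 and MAP2K6, the kinases that activate p38, rose from 11.2 ± 0.447 to 20.8 ± 1.54 FPKM (difference 0.84, adjusted p = 3.15e-05, limma) and from 1.39 ± 0.0326 to 3.09 ± 0.489 FPKM (0.77, adjusted p = 0.000249, limma).

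The next list held nuclear partners of the SMADs. Of 10 tested co-activators and co-repressors, 2 were higher, 2 lower (20.0% each) and 6 did not pass. Over all tested genes 35.0% were higher and 20.4% lower. After median-ratio scaling 4 were lower (40.0%) and 6 did not pass, beside 27.2% lower and 27.3% higher of all tested genes. The co-repressor gene TGIF2 was at 7.31 ± 0.812 and 8.84 ± 0.446 FPKM, and its call did not hold after that scaling (adjusted p = 0.193, limma). The deacetylase gene HDAC1 was at 57.5 ± 2.31 and 51.1 ± 0.276 FPKM and the acetyltransferase gene KAT2B at 5.07 ± 0.581 and 3.99 ± 0.369 FPKM. The TGIF2, KAT2B and HDAC1 calls were each lost when certain single libraries were left out (adjusted p from 0.0534 to 0.146 in those fits, limma).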
